A study of Mus musculus with 5 samples.

Results

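The nDKO tumour cells are epithelial cells of mouse prostate tumours, and the 3 arrays whose sample title contains nDKO, out of 5 in the series, make up the data described here. Per the labels, the mice were C57BL/6, and the Probasin promoter, which is active in prostate epithelium, drove the deletion of floxed alleles that include Smad4, the mediator shared by TGF-beta and BMP signals. Tumours were dissociated on ice, the tumour cells were isolated with EpCAM beads, and total RNA was labelled with biotin and hybridised to Affymetrix mouse arrays. Each array came from a separate mouse. The mouse called nDKO 1 was 15.86 weeks old, and nDKO 2 and nDKO 3 were both 10.71 weeks old, so that what sets nDKO 1 apart and its age cannot be told apart. No purity of the isolated cells is given in the sources used here.

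A prostate gland is lined by tall luminal cells that secrete the prostatic fluid under androgen control, above a thin layer of basal cells that carry keratins 5 and 14 and the transcription factor p63. Simple keratins such as 8 and 18 mark the luminal layer. EpCAM is an adhesion protein of epithelial cells in general, so beads against it take up luminal and basal cells alike and leave most stroma, vessels and blood cells behind. Stratified epithelia such as skin and oesophagus make another set of proteins, the keratins 1, 10 and 13 and the cornified envelope proteins, and prostate tumours can take on such squamous features. The seminal vesicles lie beside the prostate and secrete their own abundant family of proteins.

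Values are log2 signals, so that 1 unit is a 2-fold difference. A gene was represented by its brightest probe set with a single symbol, which gave 18193 genes, and its rank was taken over all 34945 probe sets with a single symbol, with rank 1 the brightest. Probe sets bind their targets with unequal strength, so a rank orders signals and does not order transcript numbers. Dimmer probe sets are given for some genes only, so a level can rest on 1 probe set without mention. A gene was called bright at a mean of 9.27 or more, the 90th percentile of those probe sets. It was called near the floor at a mean of 4.92 or less, the 95th percentile of 83 probe sets for odour, pheromone and bitter taste receptors, which had a median of 3.21. By these rules 2519 genes (13.8%) were bright, 6315 (34.7%) were near the floor and 9359 lay between. The mean of the 3 mice was above the floor for 11186 genes (61.5%) at an adjusted p under 0.05 by limma's moderated test, and 692 more had a mean above it without passing. The tested probe set was chosen as the brightest on the same arrays, while the receptor probe sets behind the floor were not chosen so. This tilts the shares of genes upwards, and 42.4% of all single-symbol probe sets were near the floor.

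The array of nDKO 1 stood apart from the other two. Over the probe sets with a single symbol the log2 signals correlated with r = 0.996 between nDKO 2 and nDKO 3 and with r = 0.987 between nDKO 1 and either of them, as a description over probe sets that share the same probes. Genes at least 1 unit apart numbered 177 between nDKO 2 and nDKO 3, 589 between nDKO 1 and nDKO 2 and 558 between nDKO 1 and nDKO 3. The array medians were alike, from 4.94 to 4.98. Levels are therefore given for each mouse in the order nDKO 1, nDKO 2 and nDKO 3, and results that rest on nDKO 1 are also given without it.

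The 5 markers of epithelial identity were all bright. Epcam itself had 12.94, 13.48 and 13.35, a mean of 13.26 ± 0.28 (SD, n = 3) and rank 50. The luminal keratin Krt8 had 12.96, 13.32 and 13.35 (rank 58), and its partner Krt18 had 12.59, 12.91 and 12.85 (rank 121). The 3 mice lay within 0.54 of each other for each of these genes. The basal keratins were bright too but spread over the mice. Krt5 had 13.10 in nDKO 1 against 10.87 and 10.81 in the others, and Krt14 had 12.89 against 11.17 and 10.58. Without nDKO 1 both stayed bright. The label of epithelial tumour cells thus met its markers, luminal and basal, in each mouse.

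Among genes of luminal and simple epithelium, 18 of 20 measured were bright, with a list median of 12.03 against 6.30 over all genes. Cd24a, a surface glycoprotein, had 13.59, 13.56 and 13.58, and Krt19 had 13.39, 13.67 and 13.65. Prom1, a stem and progenitor surface protein, followed with 13.07, 13.47 and 13.47. The adhesion and tight junction genes Cdh1 (mean 12.49), Cldn7 (12.08), Cldn4 (11.86) and Cldn3 (11.82) were bright, as were the epithelial transcription factors Ehf (12.15), Foxa1 (11.98), Elf3 (10.29) and Grhl2 (10.19). The members that were not bright were Spdef, a luminal transcription factor, with 7.32, 8.05 and 8.20, and Psca, a surface antigen of prostate and stratified epithelium, with 10.86, 6.91 and 7.69. Of 15 basal genes 4 were bright and 0 near the floor. Krt15 was the brightest of them and nearly the same in the 3 mice (13.68, 13.41 and 13.52), and the integrin Itga6 had 11.02, 10.71 and 10.67. Trp63, which encodes p63, had 9.49, 7.04 and 6.86.

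Genes of mesenchymal transition were dim, with 7 of 10 near the floor and a list median of 4.11. Zeb1 (mean 4.27), Zeb2 (4.46), Snai1 (3.91), Twist1 (2.72), Twist2 (3.95) and the neural cadherin Cdh2 (3.11) lay near the floor in each mouse. The exceptions were the matrix protein Fn1 with 8.13, 7.30 and 8.49, the filament protein Vim with 7.20, 6.12 and 7.49, and Snai2, which basal cells also express, with 6.94, 5.62 and 5.28. Fn1 and Vim were lowest in nDKO 2, the mouse with the lowest median of pan-leukocyte genes (7.86, 7.22 and 8.29), and the part of other cells in their signal was not tested.

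**Figure D1:**
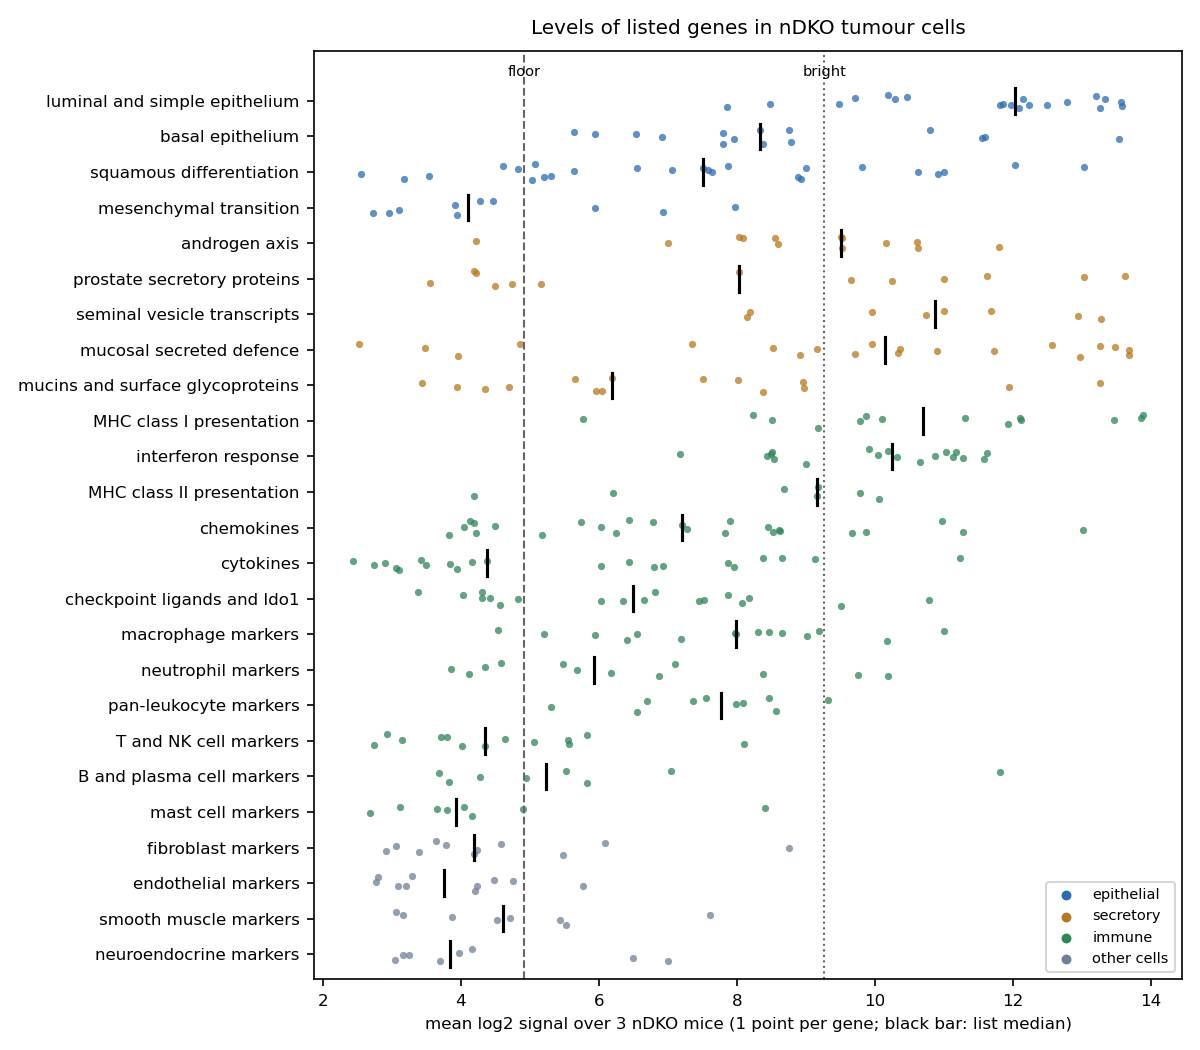
Mean log2 signal over the 3 nDKO mice on the horizontal axis, with a point for each measured gene of 25 lists and a black bar at each list's median, coloured by area. The dashed line is the floor at 4.92 and the dotted line the bright threshold at 9.27. Luminal genes sit almost wholly to the right of the dotted line (18 of 20), and mesenchymal, endothelial, fibroblast and mast cell markers sit mostly to the left of the dashed line.

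The brightest genes combined housekeeping, antigen presentation and secretion. Of the 100 brightest, 33 encoded ribosomal proteins, and 3 differed by 1 unit or more between mice, against 4.31% of all genes. Outside translation and cytoskeleton, the top positions were held by Tpt1, a translationally controlled tumour protein (mean 14.01 ± 0.05, SD, n = 3), and by Anxa1, an anti-inflammatory phospholipid-binding protein of epithelia (14.04, 14.01 and 13.94). The subunits of MHC class I came next, B2m with 13.58, 14.08 and 13.98 and H2-K1 with 13.52, 14.08 and 13.99. Cbr2, a carbonyl reductase known from airway secretory cells, had 13.75, 13.74 and 13.71, and Cyp2f2, a cytochrome P450 of the same cells, had 13.78, 13.59 and 13.49. Both lay within 0.29 over the mice. Itm2b, Fth1 for iron storage, the chloride transporter Slc12a2, the stress protein Nupr1 and the actin-binding Tmsb4x completed this group with means from 13.37 to 13.64. For Tpt1 the only other probe set had a mean of 2.95, so its level rests on a single probe set.

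Secreted defence proteins of mucosal surfaces were bright for 12 of 20 members, with a list median of 10.15. Clu, a secreted chaperone that is abundant in stressed prostate epithelium, had 13.53, 13.77 and 13.76. Ltf, the iron-binding lactoferrin, had 13.92, 13.65 and 13.48, and the immunoglobulin transporter Pigr had 13.26, 13.58 and 13.59. The antibacterial proteins Lcn2 (mean 12.98) and Reg3g (12.56) and the protease inhibitors Wfdc2 (13.26) and Wfdc18 (13.47) were bright in each mouse. Saa1 and Saa3, acute phase proteins, lay just under the bright threshold with means of 9.17 and 8.92. By contrast Camp (3.48), Bpifa1 (2.53) and Saa2 (3.97) lay near the floor. Of 20 beta-defensins 15 were near the floor and 0 bright.

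Products of the differentiated prostate were split. Of 13 prostate secretory proteins 6 were bright and 5 near the floor, against 13.8% and 34.7% of all genes. Mmp7, a matrix protease, was steady at 13.07, 13.04 and 12.97. Msmb, a major protein of prostatic fluid, had 3.61, 3.59 and 3.48, and the transglutaminase Tgm4 had 4.77, 4.71 and 4.77, both near the floor in each mouse. Pbsn, which encodes probasin, had 3.91, 3.33 and 5.43, above the floor in nDKO 3 only. The androgen axis list held 7 bright genes of 13, among them Tmprss2 with 11.27, 12.24 and 11.87, Fkbp5 with 9.76, 11.04 and 11.07, Abcc4 with 11.19, 10.30 and 10.34 and Steap4 with 9.72, 10.41 and 10.36. These are target genes of the androgen receptor in prostate cells, some of them also of glucocorticoids. The phosphatase Acpp had 8.95, 8.35 and 8.37 by 1 probe set, while its other probe sets had means of 4.42 and 4.20, below the floor.

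Mucins and surface glycoproteins had a list median of 6.19, close to that of all genes. Against 13.8% of all genes, 2 of 15 were bright. These were Ceacam1, an adhesion protein (12.75, 13.53 and 13.50), and Cd44, the hyaluronan receptor (11.90, 12.08 and 11.86). Muc1 had 9.43, 8.72 and 8.72, while the gel-forming Muc2 (mean 4.69) was near the floor and Muc5ac (6.19) and Muc5b (6.05) lay between. Muc4 was above the floor in nDKO 1 alone, with 5.78 against 2.91 and 3.14.

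Antigen presentation by MHC class I was bright as a group, with 10 of 14 members bright, 0 near the floor and a list median of 10.70. The peptide loading genes Tapbp (mean 12.10), Calr (12.12) and Pdia3 (11.93) accompanied B2m, H2-K1 and H2-D1 (13.46). Genes of the class I family are near-identical in sequence and their probe sets may share signal. Interferon response genes were bright for 12 of 18 and near the floor for 0, with a list median of 10.25. Oasl2 had 10.99, 11.99 and 11.92, Ifi35 had 11.27, 11.79 and 11.70, and Irf7, the transcription factor that amplifies type I interferon, had 10.21, 11.52 and 11.38. The interferon genes on the cytokine list were near the floor, Ifnb1 with a mean of 4.39 and Ifng with 2.74.

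Chemokines were bright for 5 of 25, against 13.8% of all genes. Cxcl17, a mucosal chemokine, was the brightest with 12.44, 13.45 and 13.17. The neutrophil attractants Cxcl5 (11.75, 10.96 and 11.13) and Cxcl15 (10.97, 10.77 and 11.19) followed, and Cxcl16 and Cxcl2 had means of 9.88 and 9.66. Ccl2 (mean 4.22), Ccl7 (4.13), Ccl17 (4.50), Ccl22 (3.84), Cxcl12 (4.05) and Cxcl14 (4.19) lay near the floor. Cytokines were mostly dim, with 11 of 21 near the floor and a list median of 4.39. The exception was Il33, an alarmin that epithelial nuclei store, with 11.82, 11.02 and 10.88. The interleukin 1 antagonist Il1rn had 9.26, 8.96 and 9.19, and the macrophage growth factor Csf1 had 8.36, 8.86 and 8.76. Il6 (mean 2.45), Il1a (2.90), Csf2 (3.42) and Tslp (3.11) were near the floor in each mouse.

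Of the checkpoint ligands and related genes 2 of 18 were bright and 7 near the floor, not far from the 13.8% and 34.7% of all genes. Cd47, the signal against phagocytosis, had 10.54, 10.82 and 11.01. Cd274, which encodes PD-L1, had 5.95, 6.36 and 6.75, and Pdcd1lg2, which encodes PD-L2, had 3.96, 4.03 and 4.09. Ido1, the tryptophan-degrading enzyme, had 6.28, 8.18 and 8.10, whereas Ido2 was near the floor (mean 3.38). Nectin2 (8.18), Pvr (8.08) and Cd276 (7.88) lay between the floor and the bright threshold.

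Leukocyte markers were present in the bead-isolated cells at intermediate level. In bulk RNA, fewer cells of a type and less RNA per cell cannot be told apart. Of 10 pan-leukocyte genes 0 were near the floor, and Ptprc, which encodes CD45, had 7.46, 6.87 and 8.33. Of 15 macrophage markers 1 was near the floor, and the list median was 7.99. Csf1r, the receptor for the growth factor named above, had 9.37, 8.24 and 9.96, Tyrobp had 9.03, 8.36 and 9.66, and Cd14, which epithelial cells can also make, had 11.09, 10.95 and 11.01. Among 12 neutrophil markers the calprotectin genes S100a8 (10.53, 9.66 and 10.37) and S100a9 (10.01, 9.26 and 9.99) were bright, Csf3r had 6.86, 6.60 and 7.15, and the granule genes Elane, Mpo and Ngp were near the floor. T and NK cell markers were dim, with 8 of 13 near the floor. Cd3e (mean 5.58) and Cd8a (5.56) lay just above it, Cd8a by a single probe set that read 5.56 on all 3 arrays while its other 4 had means of 4.18, 3.79, 3.76 and 3.13, and Cd3g (2.75), Gzmb (4.02) and Ncr1 (3.80) at or below it. The exception Zap70 read 8.10 on all 3 arrays from a single probe set, while its other probe sets had means of 4.88 and 3.84. Of 8 B and plasma cell markers 3 were near the floor, against 34.7% of all genes, namely Ms4a1 (3.68), Cd79a (4.27) and Cd79b (3.83). Another 4 lay between the floor and the bright threshold. Sdc1, which epithelial cells also carry, was the 1 bright member of that list (mean 11.81).

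Other cell types of the gland left little signal. For comparison, 34.7% of all genes were near the floor. Endothelial markers were near the floor for 9 of 10, with Pecam1 at 3.29, 3.37 and 2.95 and Cdh5 at 4.10, 4.26 and 4.26. Fibroblast markers were near the floor for 8 of 11, with Col1a1 at a mean of 4.58, Col3a1 at 2.92 and Pdgfra at 3.40. The other 3 were Dcn, a matrix proteoglycan, with 7.87, 9.39 and 9.03, Postn with 6.87, 5.79 and 5.62, and the collagen chain Col1a2 with 5.36, 5.5 and 5.6. The other probe set of Dcn had a mean of 4.05, and those of Col1a2 had means of 3.24 and 2.53. Smooth muscle markers were near the floor for 5 of 8, Cnn1 and Actg2 among them, while Acta2 had 8.09, 7.34 and 7.39. The level of Acta2 rests on 1 probe set, as its others had means of 3.47 and 3.07. Neuroendocrine markers were near the floor for 6 of 8, with Chga at 3.98 in each mouse. Red cell markers had 3 of 4 near the floor. Mast cell markers had 7 of 8 near the floor, and only Kit, which is not confined to mast cells, stood above it with 8.26, 8.60 and 8.39 (its other probe set had a mean of 4.62).

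Of the TGF-beta and BMP pathway 6 of 27 genes were bright and 3 near the floor. The bright genes were mainly receptors and mediators, with Tgfbr2 at 10.82, 11.06 and 11.11 and the BMP mediator Smad1 at 10.81, 10.81 and 10.84. Bmpr2 (mean 9.89) and Bmpr1a (9.86) followed. Smad4, which the label names as deleted, had 9.63, 9.88 and 9.88, and its other probe sets had 8.93, 9.16 and 9.33 and 8.14, 8.43 and 8.59. Where these probe sets lie relative to the deleted exons is not given in the sources used here, so the signal does not check the deletion. Of the ligands, Tgfb1 had 5.95, 5.66 and 6.01 and Tgfb2 and Bmp4 were near the floor. Inhbb, an activin subunit, had 9.11, 9.38 and 9.22.

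Genes of the PI3K, Akt and mTOR pathway were measured above the floor for 23 of 25 by limma's test, against 61.5% of all genes. Between mice 0 of 25 differed by 1 unit, where only 4.31% of all genes did. Pik3cd, the catalytic subunit best known from leukocytes, was bright with 11.16, 11.21 and 11.12 (rank 708), and Rheb, the activator of mTORC1, had 11.10, 11.38 and 11.27. The level of Pik3cd rests on 1 probe set, as its other 5 had means of 4.92, 4.15, 3.75, 2.84 and 2.79. The regulatory subunits Pik3r1 and Pik3r3 had means of 10.39 and 10.38, and Akt1 had 9.52. Pik3ca (8.45), Akt2 (8.44) and Mtor (8.43) lay between the floor and the bright threshold. The phosphatase Inpp4b (3.40) and the insulin receptor substrate Irs2 (4.54) were near the floor.

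For the Wnt pathway, Ctnnb1, which encodes beta-catenin, was among the 20 brightest named genes with 13.27, 13.48 and 13.37, and its other probe sets had means of 11.95 and 10.59. The R-spondin receptor Lgr4 had 11.46, 11.78 and 11.51 (its other probe set had a mean of 3.88), while the related Lgr5 (mean 3.97) and Lgr6 (3.93) lay near the floor. Of 18 Wnt ligands 9 were near the floor and 1 was bright, Wnt4 with 10.02, 10.42 and 10.26. Wnt7b followed with 8.61, 8.72 and 8.69, and Wnt5a was above the floor in nDKO 1 alone, with 7.27 against 4.34 and 4.81. The feedback target Axin2 had 6.01, 6.37 and 6.17, and the transcription factor Lef1 was near the floor (4.29).

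Among Notch genes 5 of 14 were bright. The ligand Jag1 had 10.99, 9.53 and 9.53, the receptors Notch1 and Notch2 had means of 9.65 and 9.40, and the targets Nrarp and Hes1 had 9.69 and 9.41. The Delta ligands Dll3 and Dll4 were near the floor. Of growth factor receptors, Met (9.97, 9.99 and 9.92), Erbb3 (10.03, 9.76 and 9.88) and Fgfr2 (9.99, 9.36 and 9.35) were bright, Egfr and Erbb2 had means of 8.88 and 8.45, and Erbb4 was near the floor (2.71). The other probe set of Erbb3 had a mean of 3.06. Hedgehog genes were near the floor for 6 of 9, the ligands Ihh, Shh and Dhh included, while the transducer Smo had 9.73, 9.41 and 9.30. In the Hippo pathway the kinase Lats1 (9.83, 9.72 and 9.80) and the effector Yap1 (9.49, 9.71 and 9.72) were bright, and 0 of 13 members differed by 1 unit between mice. The other probe set of Lats1 had a mean of 3.05. Of the NF-kB and JAK-STAT genes Nfkbia was brightest with 11.66, 12.03 and 12.05, Stat3 had 10.08, 10.18 and 10.22, Rela had a mean of 10.01, and 0 of 16 differed by 1 unit. Only 4.31% of all genes had a range of 1 unit or more, so counts of 0 in short lists set neither pathway apart.

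Cell cycle genes were mostly intermediate, with 14 of 17 between the floor and the bright threshold. Pcna had a mean of 11.19 ± 0.18 (SD, n = 3), Ccnd1 had 10.67, 10.93 and 10.68, and Mki67 had 8.82, 8.53 and 8.10. Immediate early and heat shock genes, which can be induced while tissue is dissociated, were bright for 9 of 18. Hspa8 had 12.81, 12.66 and 12.86, Jun had 10.38, 10.75 and 10.62, and Fos had 9.21, 9.19 and 9.08, just under the threshold. The 3 mice lay within 1 unit for each gene of both lists, as they did for all but 4.31% of the genes on the array. What part the dissociation had in these levels was not tested.

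Between the 3 mice, most genes were close. The median range, the highest minus the lowest value of a gene, was 0.19, and 785 genes (4.31%) had a range of 1 or more, of which 168 had 2 or more and 30 had 4 or more. The share was 6.29% among genes between the floor and the bright threshold, 4.37% among bright genes and 1.36% among genes near the floor. There was 1 array per mouse, so a difference between mice has no error of its own and was not tested. In 260 genes (1.43%) nDKO 1 was at least 1 unit above both others, and in 156 (0.857%) it was at least 1 unit below both. Without nDKO 1 the number of genes with a range of 1 or more was 175. Set against nDKO 3 alone, without nDKO 2, nDKO 1 was lower by 1 unit in 259 genes. Between the 2 mice of the same age, nDKO 3 was at least 1 unit above nDKO 2 in 168 genes (0.923%) and at least 1 unit below it in 9 (0.0495%).

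**Figure D2:**
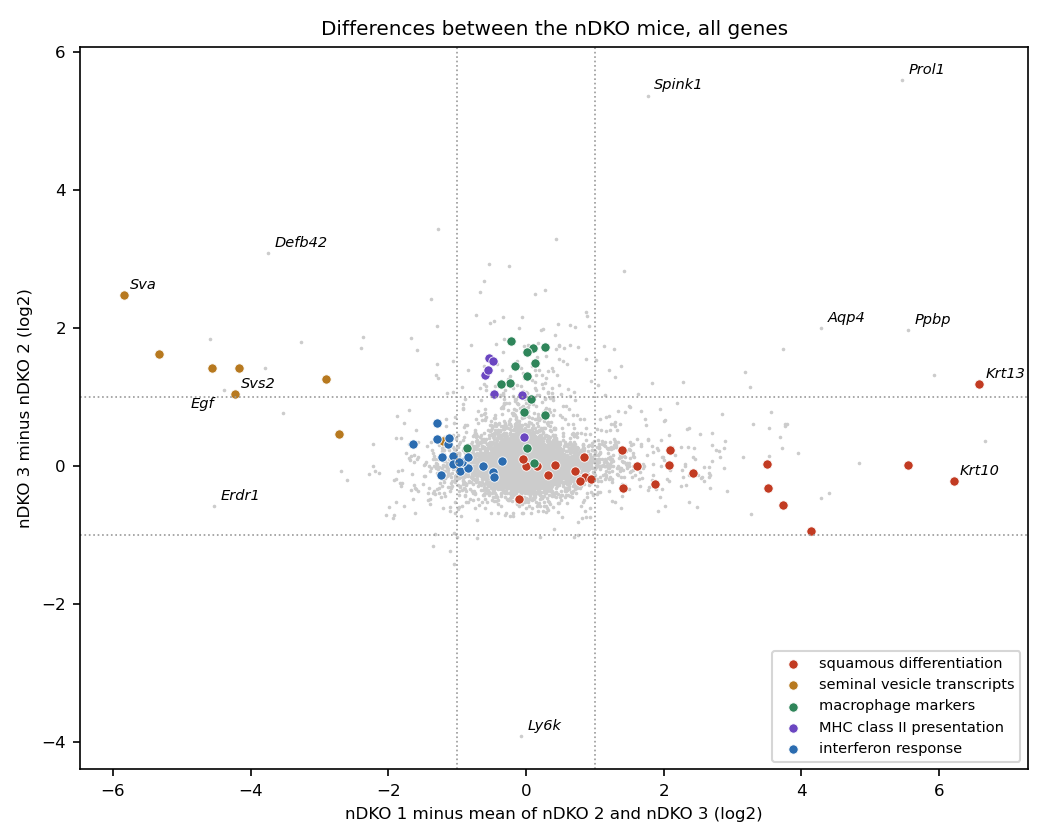
Each of the 18193 genes by nDKO 1 minus the mean of nDKO 2 and nDKO 3 (horizontal axis, log2) and nDKO 3 minus nDKO 2 (vertical axis, log2), with 5 lists coloured and dotted lines at 1 unit. Squamous genes lie to the right, seminal vesicle transcripts to the left and upwards, interferon response genes a little to the left, and macrophage and MHC class II genes upwards with little horizontal shift.

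Squamous differentiation genes were higher in nDKO 1. Of 25 squamous genes 14 were at least 1 unit higher in nDKO 1 than in both others, against 1.43% of all genes, and 0 were lower by that amount. The list median was 9.84 in nDKO 1, 6.16 in nDKO 2 and 5.98 in nDKO 3. Krt10, the keratin of suprabasal skin cells, had 13.03 in nDKO 1 against 6.93 and 6.71, a difference of 6.21 from the mean of the others. Its partner Krt1 had 11.57 against 6.02 and 6.03, and Krt13, the keratin of internal stratified epithelia, had 11.97 against 4.8 and 5.98. Krt13 was thus near the floor in nDKO 2 and among the bright levels in nDKO 1, and its other probe sets showed the same order (8.27, 4.49 and 4.86, and 7.34, 2.99 and 3.0). The cornified envelope gene Sprr2f had 10.82 against 3.98 and 4.34, both below the floor. Involucrin, Ivl, had 10.13 against 6.69 and 6.12, and Krtdap, a keratinocyte differentiation protein, had 9.83 against 6.16 and 5.21.

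Not all squamous genes were at least 1 unit higher in nDKO 1. Krt4 (13.60, 12.69 and 12.82), Krt6a (12.61, 11.83 and 11.67), Sbsn (11.45, 10.77 and 10.55) and Serpinb5 (10.03, 9.78 and 9.65) were bright in all 3 mice. They differed by less than 1 unit, and each was highest in nDKO 1. Other probe sets of Krt6a differed by more than 1 unit over the mice (12.14, 11.19 and 10.91, and 11.62, 10.70 and 10.54). The late epidermal genes Flg (mean 2.55), Dsc1 (3.18), Dsg1a (3.54), Klk7 (4.61) and Tgm3 (4.83) were near the floor in the mean of the 3 mice, and Lor had 5.49, 5.06 and 5.07. Without nDKO 1 the median of the squamous list was 6.03, against 6.30 over all genes.

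Basal and stratified epithelial genes accompanied the squamous set. Of all genes, 1.43% were at least 1 unit higher in nDKO 1 than in both others. Of the 15 basal genes 5 were at least 1 unit higher in nDKO 1 than in both others, namely Krt5, Krt14, Trp63, Snai2 and the water channel Aqp3, which had 8.84 against 5.77 and 6.13. Krt15, Itga6, Itgb4, Lama3 and Lamb3 differed by less than 0.5 over the mice. Of 48 keratins measured, 9 were higher in nDKO 1 by this rule and 0 lower, and of 8 Sprr genes 5 were higher. The keratin and Sprr genes lie in clusters. In the RefSeq gene table of GRCm38.p6 Krt1 and Krt6b lie within 5 genes of Krt5, Krt13 and Krt16 within 5 genes of Krt14, and Sprr1a and Sprr3 within 5 genes of Ivl. Only genes high in nDKO 1 were looked for, so genes that did not differ can lie between them. Of the Notch list, which includes genes that act in stratified epithelia, Jag1, Nrarp and Notch3 were higher in nDKO 1, Notch3 with 9.72 against 8.53 and 8.50. The surface antigen Psca (10.86 against 6.91 and 7.69) and the transcription factors Sox7 (9.66 against 5.61 and 5.14) and Pitx1 (8.83 against 4.79 and 5.36) also were among the largest differences. So were the platelet chemokine Ppbp (10.54 against 4.01 and 5.97) and the secreted glycoprotein Olfm4 (13.47 against 9.41 and 10.01). The other probe set of Sox7 gave 3.33, 3.27 and 3.33, below the floor, so its difference rests on 1 probe set.

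The promoters of 5 of the 15 named genes with the largest excess in nDKO 1 hold the letters TATAAA on the sense strand between 40 and 20 bases upstream of the annotated start, where a TATA box is usually found. Of these, 3 are shown because they belong to the cornified and suprabasal programme that sets nDKO 1 apart. Each line gives the 60 bases that end just before the start, from RefSeq on GRCm38.p6, 5′ to 3′ on the gene's own strand, with TATAAA in capitals. Sprr2f lies at chr3:92365127-92365186 on the plus strand, Krt10 at chr11:99389365-99389424 on the minus strand and Krtdap at chr7:30787845-30787904 on the plus strand. The first base of TATAAA lies 29, 26 and 30 bases upstream of the start, in that order.
Sprr2f: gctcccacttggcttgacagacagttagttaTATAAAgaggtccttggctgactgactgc
Krt10: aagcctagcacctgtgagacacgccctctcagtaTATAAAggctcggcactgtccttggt
Krtdap: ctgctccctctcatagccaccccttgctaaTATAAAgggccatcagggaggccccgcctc

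**Figure D3:**
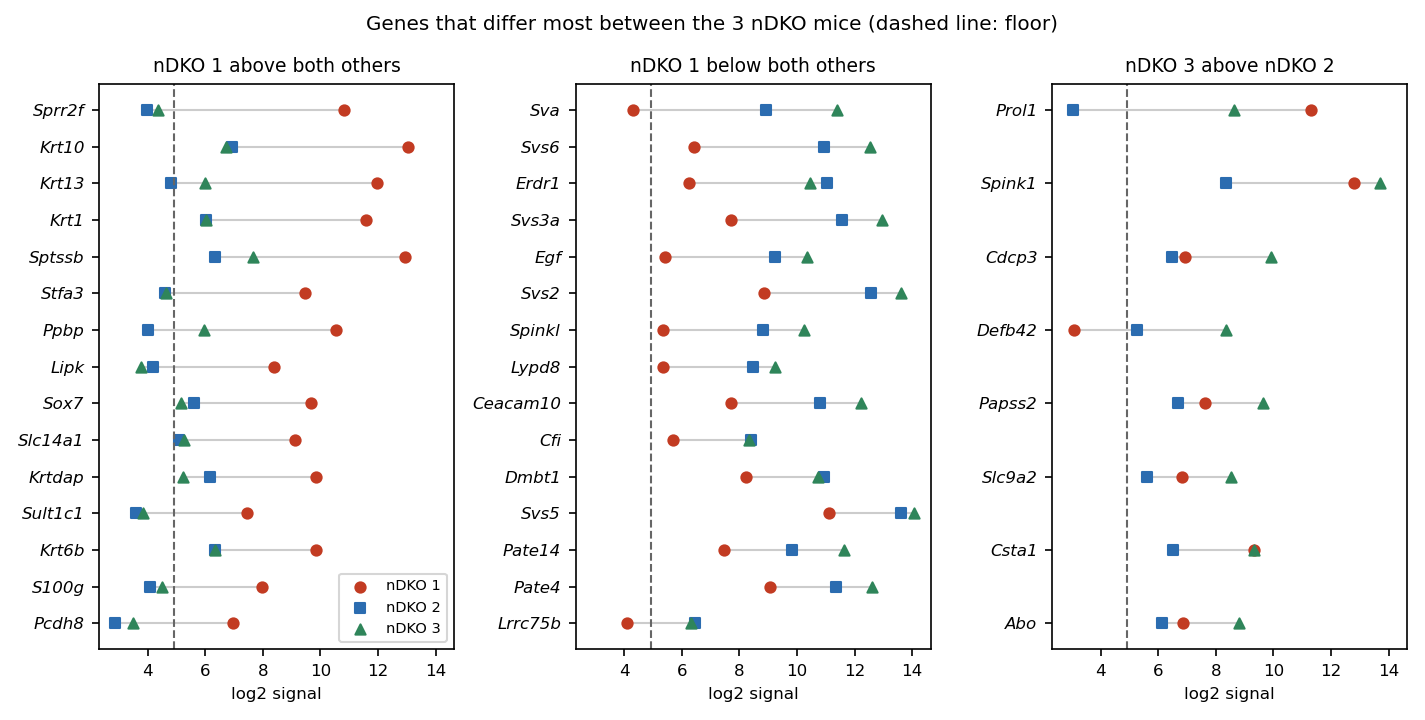
Log2 signal in each nDKO mouse (symbols) for the 15 named genes with the largest excess of nDKO 1, the 15 with the largest deficit of nDKO 1 and the 8 with the largest excess of nDKO 3 over nDKO 2, with the floor at 4.92 as a dashed line. In the left panel nDKO 1 lies to the right of both others for each gene, and nDKO 2 and nDKO 3 are at least 1 unit apart for Ppbp, Sptssb and Krt13, while in the middle panel nDKO 3 lies to the right of nDKO 2 for the seminal vesicle genes.

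Seminal vesicle transcripts were lower in nDKO 1 than in both others. All 8 measured were at least 1 unit lower in nDKO 1 than in both others, against 0.857% of all genes, and 6 of the 8 were also at least 1 unit apart between nDKO 2 and nDKO 3. The list median was 8.28, 11.45 and 12.79 in the 3 mice. Sva had 4.30, 8.91 and 11.38, below the floor in nDKO 1 only. Svs6 had 6.41, 10.93 and 12.55, and Svs2, a major clotting protein of the vesicle secretion, had 8.86, 12.57 and 13.61. A second probe set of Svs2 gave 3.79, 7.88 and 9.88. Svs5 (11.13, 13.62 and 14.08) and Svs4 (12.47, 13.50 and 13.86) were bright in every mouse, and the 14.08 of Svs5 in nDKO 3 equals the highest value of the table. The order nDKO 1, nDKO 2, nDKO 3 from low to high was the same for each of the 8 genes, and Pate14 and Ceacam10, which are not on that list, shared it. Whether these transcripts came from tumour cells or from tissue beside the prostate was not tested.

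The Svs genes neighbour each other in the RefSeq table, and the promoters of 3 of them hold TATAAA in the same window. They are shown because the transcripts of these genes differ together between the mice. Svs6 lies at chr2:164316691-164316750, Svs5 at chr2:164332705-164332764 and Svs3a at chr2:164289207-164289266, each on the plus strand of GRCm38.p6, with the 60 bases before the start printed as above.
Svs6: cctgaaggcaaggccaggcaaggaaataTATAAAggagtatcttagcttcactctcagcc
Svs5: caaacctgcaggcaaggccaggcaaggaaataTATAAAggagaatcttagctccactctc
Svs3a: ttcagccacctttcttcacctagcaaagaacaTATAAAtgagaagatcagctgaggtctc
The stretches of Svs5 and Svs6 share an unbroken run of 33 bases that spans TATAAA, while either shares at most 7 bases in a row with Svs3a.

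Other genes that were low in nDKO 1 included genes of interferon response, antigen presentation and hormone response. Of all genes, 0.857% were at least 1 unit lower in nDKO 1 than in both others, and 4.31% had a range of 1 or more. Of 18 interferon response genes 5 were at least 1 unit lower in nDKO 1 than in both others, namely Ifit3 (10.04, 11.52 and 11.83), Irf7, Usp18 (10.36, 11.52 and 11.64), Rsad2 (10.01, 11.11 and 11.49) and Gbp3 (7.81, 8.85 and 8.88), and 11 of 18 had a range of 1 or more. Each of the 18 was lowest in nDKO 1, and 12 were still bright in the mean. Of 14 MHC class I genes 4 were lower by this rule. These were the immunoproteasome subunits Psmb8 (10.55, 11.73 and 11.63) and Psmb9 (9.02, 10.36 and 10.24) and the peptide transporter genes Tap1 (9.04, 10.17 and 10.15) and Tap2 (8.41, 9.63 and 9.48). All lie within 5 genes of each other on chromosome 17. B2m and H2-K1 differed by no more than 0.56. Of 10 interferon-inducible GTPases, a family taken after the values were seen, 5 were lower in nDKO 1, Igtp with 8.84, 10.10 and 10.28 and Iigp1 with 6.15, 7.84 and 8.24 among them. Ido1 and Lgals9 (8.60, 9.99 and 9.96) of the checkpoint list were lower as well.

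Of 13 androgen axis genes 3 were lower in nDKO 1 by 1 unit or more, against 0.857% of all genes. These were Fkbp5, the peptidase Mme (8.48, 9.98 and 10.11) and Zbtb16 (5.81, 7.64 and 7.58). The list did not move as 1, since its member Abcc4, given above, was highest in nDKO 1, as was the phosphatase Acpp. Hoxb13, a transcription factor of prostate identity, had 8.86, 9.98 and 10.28, and of 33 Hox genes 3 were lower in nDKO 1 and 0 higher. Egf, a growth factor of differentiated secretory cells, had 5.40, 9.24 and 10.34, while Ereg, another ligand of the same receptor family, had 6.35, 4.02 and 4.05. The mucosal genes Dmbt1 (8.22, 10.93 and 10.72) and Ccl28 (6.61, 8.56 and 8.31) were lower in nDKO 1 too. The other probe sets of Ccl28 lay below the floor, with 4.29, 4.55 and 4.42 and with 3.91, 4.05 and 3.98. Erdr1 had 6.24, 11.06 and 10.47 by the probe set that represents it and 4.95, 5.32 and 5.40 by another, so its difference rests on 1 probe set.

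**Figure D4:**
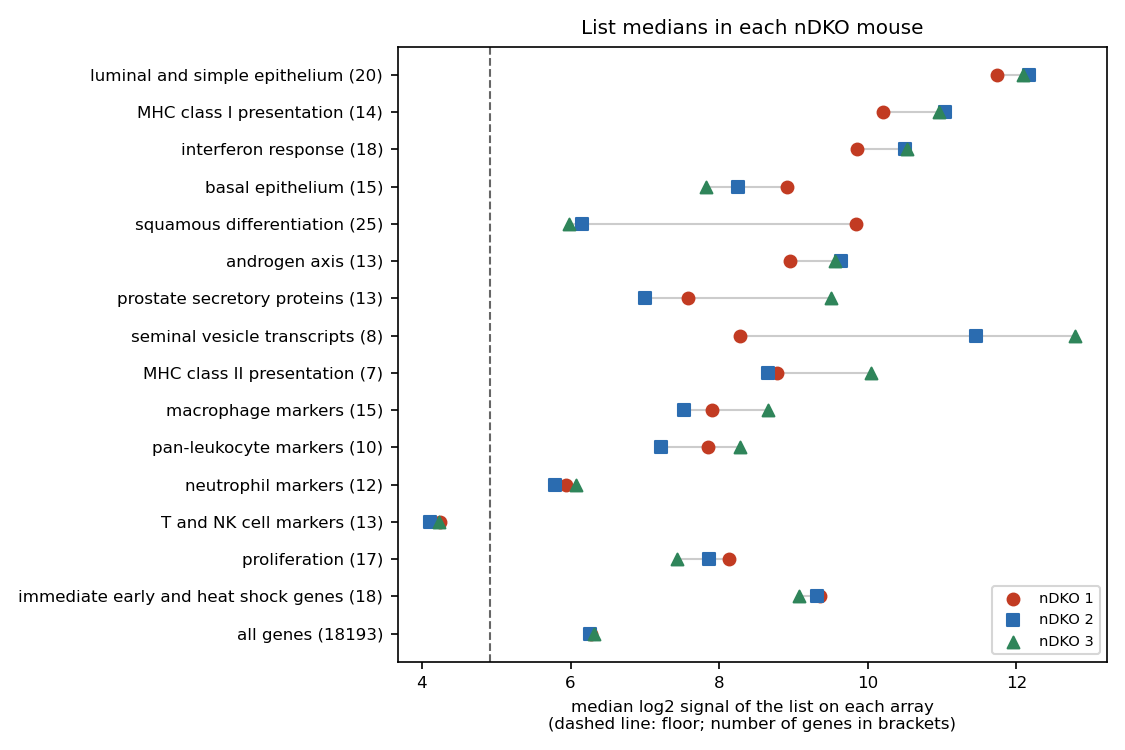
Median log2 signal of each of 15 gene lists, and of all genes, on the array of each nDKO mouse, with the number of measured genes in brackets and the floor as a dashed line. The squamous median is 9.84 in nDKO 1 and 6.16 and 5.98 in the others, the seminal vesicle median climbs from 8.28 to 12.79, and the T and NK cell median is near 4.2 in every mouse.

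Genes apart between the 2 mice of the same age included leukocyte genes and secretory products, and nDKO 3 was the higher in 168 of 177. Of 15 macrophage markers 9 were at least 1 unit higher in nDKO 3 than in nDKO 2, against 0.923% of all genes, and 0 were lower by that amount. The complement genes C1qa (8.20, 7.64 and 9.09), C1qb (8.72, 7.76 and 9.47) and C1qc (7.28, 6.40 and 7.89) showed the same order, with nDKO 1 between the others. They lie within 5 genes of each other. Cd163, a marker of resident macrophages, had 4.55, 3.71 and 5.35. Exceptions were Cd14, which differed by 0.14 over the mice, and Mrc1, with 7.90, 8.63 and 8.89. Of 7 MHC class II genes 6 were higher in nDKO 3, H2-Aa with 9.43, 9.19 and 10.75 and Cd74 with 8.78, 8.72 and 10.04, and their transactivator Ciita was near the floor in each mouse (4.18, 4.0 and 4.42). Of 10 pan-leukocyte genes 6 were higher in nDKO 3, among them Ptprc and Cd52 (8.45, 9.01 and 10.49). Of 12 neutrophil markers 0 were at least 1 unit apart between these mice. As only 0.973% of all genes were, a count of 0 does not set so short a list apart. The median of the neutrophil list was 5.95, 5.79 and 6.08, lowest in nDKO 2 as well.

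Some immunoglobulin transcripts were lowest in nDKO 2. Igha, the heavy chain of immunoglobulin A, had 10.94, 9.45 and 11.50, Ighm had 7.72, 6.31 and 8.02, and the joining chain gene Jchain had 7.66, 5.73 and 7.75. Of 21 immunoglobulin genes, a family taken after the values were seen, 6 were at least 1 unit apart between nDKO 2 and nDKO 3 and 13 were near the floor. Over all genes these shares were 0.973% and 34.7%. The family median was 3.98, 3.98 and 4.50. The B cell surface genes Cd79a, Cd79b and Ms4a1 were near the floor in each mouse. The lysozyme genes Lyz1 (11.37, 9.66 and 11.67) and Lyz2 (10.79, 9.13 and 11.17) are near-identical and their signals may not be separate.

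Several secreted products were among the largest differences between nDKO 2 and nDKO 3. Prol1, a salivary and lacrimal type secretory protein, had 11.29, 3.03 and 8.62, below the floor in nDKO 2 alone, and its second probe set gave 10.36, 3.60 and 7.72. Spink1, a secreted trypsin inhibitor, had 12.80, 8.35 and 13.71. Azgp1, a zinc-binding secretory glycoprotein, had 7.58, 7.0 and 9.51, and the beta-defensin Defb42 had 3.06, 5.26 and 8.34. Enzymes were among them too. Papss2, which makes the donor for sulphation, had 7.62, 6.70 and 9.62, and Abo, a blood group glycosyltransferase, had 6.86, 6.13 and 8.81. Of 13 prostate secretory genes 5 were at least 1 unit apart between these mice, against 0.973% of all genes. Cdcp3 had 6.91, 6.47 and 9.90, and its promoter, at chr7:131174342-131174401 on the plus strand, is shown because Cdcp3 was the only one of the 8 named genes of this set with TATAAA in the window.
Cdcp3: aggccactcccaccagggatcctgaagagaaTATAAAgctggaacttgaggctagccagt
Genes higher in nDKO 2 than in nDKO 3 were few. Ly6k, a surface protein of the Ly6 family, had 8.71, 10.74 and 6.82, a difference of 3.92. Its other probe set gave 4.08, 4.18 and 3.91, below the floor, so the difference rests on 1 probe set. The other differences were smaller, with Pik3c3 at 7.38, 9.31 and 8.15, Ptprn2 at 5.13, 6.88 and 5.46, and the cell cycle gene Shcbp1 at 6.69, 6.44 and 5.43. The other probe set of Ptprn2 gave 4.45, 4.39 and 4.5, below the floor and not higher in nDKO 2.

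Promoters of the variable genes were compared with those of all genes on the array in windows of 300 bases, from 250 before the annotated start to 50 after it, with the first promoter listed per gene. TATAAA on the sense strand between 40 and 20 bases upstream was held by 2.39% of the 14452 array genes with a listed promoter. The share was 12.4% among genes high in nDKO 1 (24 of 194), 8.26% among genes low in nDKO 1 (9 of 109) and 12.3% among genes higher in nDKO 3 than in nDKO 2 (16 of 130). Among bright genes with a range under 1 it was 1.16%. TGANTCA, the site of AP-1 factors, was searched on both strands of the whole window. It was held by 6.33% of array genes, 21.6% of genes high in nDKO 1, 9.17% of genes low in nDKO 1 and 7.69% of genes higher in nDKO 3. CCCGCCC is a site of Sp factors. It was held on either strand by 39.6% of array genes, 52.2% of bright genes with a range under 1, 29.4% of genes high in nDKO 1, 40.4% of genes low in nDKO 1 and 13.8% of genes higher in nDKO 3. These are counts of letters in a window, and clustered gene families share promoter sequence, so the genes of a set are not independent.

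A second probe set of the same gene reads another part of the transcript, and the next brightest was taken. Taken at any level, a choice added after the data were seen, it was present for 121 of the 260 genes high in nDKO 1 and gave a difference of the same sign in 106, of at least 0.5 times the size as well in 63. For the genes low in nDKO 1 the sign was the same in 72 of 75, with at least 0.5 times the size in 46. For genes higher in nDKO 3 than in nDKO 2 it was the same in 68 of 77, with at least 0.5 times the size in 39. Among second probe sets with a mean above the floor the sign was the same in 63 of 67, 55 of 55 and 42 of 42 in these 3 sets. Some of these passed the floor only through the mouse in which the gene is high, so these latter counts are a description. Among 4899 other genes above the floor with a second probe set above it, nDKO 1 differed from the others in the same direction in 70.6%.

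**Figure D5:**
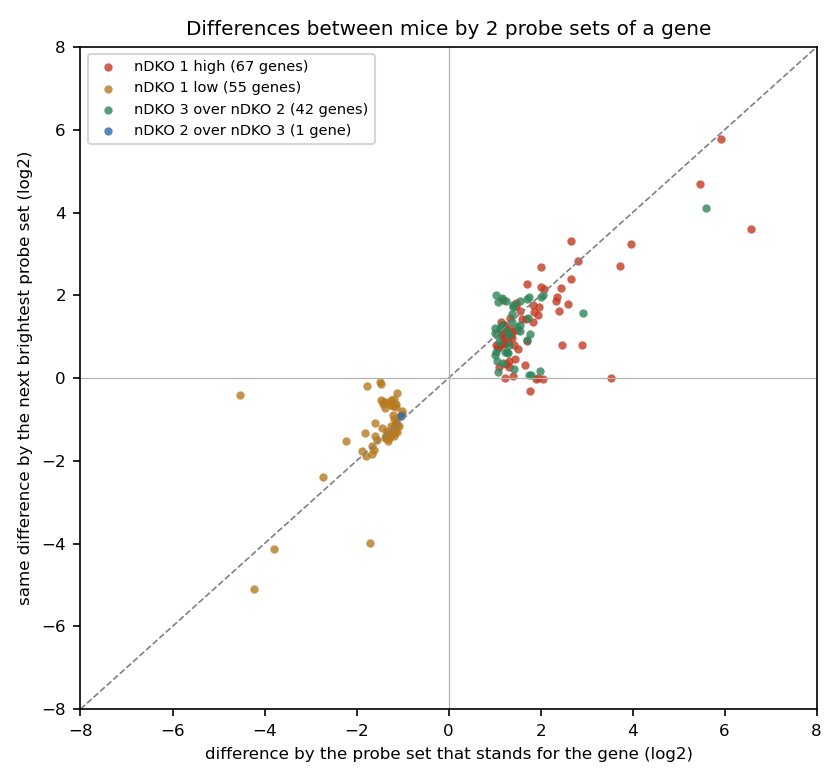
Difference between mice by the probe set that represents a gene (horizontal axis, log2) and by the next brightest probe set of that gene (vertical axis, log2), for the genes of each set that have a second probe set with a mean above the floor over the 3 mice. Genes of the nDKO 1 sets are plotted by nDKO 1 minus the mean of the others and the remaining genes by nDKO 3 minus nDKO 2, and the dashed line marks equality. As the floor was applied to a mean that includes the mouse with the high value, the points describe only the probe sets that passed it.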

How the data were processed

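Gene expression was measured on 5 arrays, and the 3 of nDKO tumour cells were analysed. Per the submitters' processing notes, the authors used RMA with the Transcriptome Analysis Console, and they deposited a log2 signal for each probe set with 2 decimals. Software versions are not given in the sources used here. Quantile normalization in RMA hides a shift common to most genes, and dim probe sets are drawn together. At any level, 1060 genes had the same value on all 3 arrays, among them Zap70 (8.10) and Foxo4 (7.29), well above the floor. Such genes bring no spread of their own to the test against the floor. Why their values are identical was not tested.

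Of 45037 probe sets, 34945 had 1 symbol in the platform annotation, 932 had several and 9160 had none. The gene identifiers of 34741 were found in the RefSeq table of GRCm38.p6. A gene was its brightest single-symbol probe set over the 3 arrays. Each mean was set against the floor with limma 3.58.1 in R 4.3.3 (lmFit with an intercept only, eBayes with an intensity trend, two-sided, Benjamini-Hochberg over all genes, 2 residual degrees of freedom and 0.712 from the prior), and the fit was tested on simulated data. Differences between mice and gene lists got no test. The lists held 600 genes, 561 of them measured, and 20 families were taken by symbol after the values were seen. The number of arrays limits the precision. As the labels give each array its own mouse, the spread is that between mice.

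Named genes were the epithelial markers and study genes, the 20 brightest outside ribosomal, cytoskeletal and predicted genes, the 15 largest differences of nDKO 1 in each direction and the 8 between nDKO 2 and nDKO 3, the highest, lowest and most variable members of each list, and those that complete a count. A few others, such as Pitx1, Olfm4, Igha and Ighm, were chosen after their values were seen. The members and lists were chosen with earlier results of these data known. Some items, and genes without a single-symbol probe set, are not reported here.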

Additional observations from a re-analysis of the deposited data

How the results depend on the processing

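No paired analysis was possible because a single group is described, so replicate numbers pair no samples. Under quantile normalization, median centring, the probe set chosen over all 5 arrays, and probe sets without an s, x or a suffix, each count of genes stayed within 1.5 times its value. Bright genes numbered 1252 with the threshold at the 95th percentile, genes near the floor 3946 with the floor at the 75th percentile of the receptor probe sets, and genes with a range of at least 2 numbered 168, each by construction of the stricter rule. Leaving out each mouse in turn gave 2522 to 2532 bright genes, 6274 to 6397 near the floor and 10418 to 10974 above the floor by limma. Genes with a range of at least 1 numbered 175 (without nDKO 1) to 591, genes high in nDKO 1 301 to 369 and genes low in nDKO 1 222 to 259 (259 without nDKO 2), since 2 mice remain in each. Without nDKO 1, nDKO 2 and nDKO 3 were at least 1 apart in 175 genes, nDKO 3 being higher in 166 and lower in 9. By probe sets without a suffix the median moved by more than the spread between mice in 11 of 40 lists, by at most 0.983. The level moved in 6 of 76 named genes (Tpt1 to 2.95, Erdr1 to 5.22, Svs2 to 7.18, H2-D1 to 9.38, Cd24a to 12.98, Itm2b to 12.65). By this rule another probe set of the same gene stood for each of these 6 genes. Why the probe sets of a gene differ in level was not tested. Without nDKO 1, 6 of 40 list medians moved by more than that spread. Signals near the floor carry little information on level, so differences among dim genes are the least certain.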

Other observations

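Genes of detoxification enzymes were described outside the lists. Of 24 glutathione transferases, a family chosen after the values were seen, 6 were bright, 4 near the floor and 7 had a range of 1 or more, where all genes had 13.8%, 34.7% and 4.31%. Mgst1 had 12.27, 12.55 and 12.32 in nDKO 1, nDKO 2 and nDKO 3, and Gstp1 had 12.17, 12.18 and 12.04. Gsta4 was higher in nDKO 1, with 12.59 against 11.32 and 11.38, whereas Gstt1 was lower, with 7.74 against 9.13 and 8.73. Among 35 aldehyde dehydrogenases and aldo-keto reductases 7 were bright, led by Akr1a1 (12.86, 13.00 and 12.98), and the retinoic acid producing Aldh1a1 had 9.38, 10.63 and 10.31. Arg1, the arginine-degrading enzyme, was bright and steady with 12.02, 12.31 and 11.98.

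Of 33 Hox genes 3 were bright, against 13.8% of all genes. These were Hoxa9 (10.31, 10.14 and 10.01), Hoxb13 and Hoxd13 (9.04, 10.04 and 10.08), all members of the posterior groups. Sox4 was the only bright Sox gene of 19 (11.91, 11.16 and 11.21). Sox9, a factor of prostate budding and tumours, had 7.57 in nDKO 1 against 8.78 in both others.

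Of the 10092 probe sets without a single symbol, 459 were bright by the same threshold, 143 had a range of 1 or more, 44 were at least 1 unit higher in nDKO 1 than in both others and 30 at least 1 unit lower. They are counted here and not named.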
